A study of Homo sapiens with 6 samples.

Results

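The genes described here are long noncoding RNA (lncRNA) genes of human SH-SY5Y cells that were chosen by name: NEAT1, MALAT1, MIAT, MEG3, KCNQ1OT1, NORAD and OIP5-AS1. The rule that chose them uses no measured value, although they were chosen with earlier results of these data known. Of the 7 genes, 6 have a row among the 21301 genes of the expression table, of which 3446 are annotated as lncRNA genes, and all 6 passed the filter on low counts. MEG3 was not analysed here, and only its neighbours in the imprinted DLK1-DIO3 domain are described. The word "abundant" holds for 5 of the 6 genes, each with a mean above 100 CPM (counts scaled to the normalized size of the library). It does not hold for KCNQ1OT1, which had 2.51 to 3.99 CPM.

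SH-SY5Y is a cell line derived from a human neuroblastoma that is widely used as a model of neuronal cells. The siControl group was treated for 72 h with control siRNA, and the siPSF group for 72 h with 10 nM siRNA against PSF, the protein encoded by SFPQ. Each group has 3 libraries, described as biological triplicates. All cells are of 1 line, 1 siRNA sequence against PSF was used for the sequencing, and no rescue library was analysed here, so effects of losing PSF and off-target effects of that siRNA cannot be told apart.

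PSF is an RNA-binding protein of the DBHS family and a core protein of paraspeckles, nuclear bodies that are built on NEAT1. NEAT1 has a short polyadenylated transcript and a long transcript that shares its 5′ end, and the long one is the scaffold that paraspeckles need. MALAT1, transcribed from the same stretch of the genome, is found at nuclear speckles, where splicing factors are stored. Like the long NEAT1 transcript, it ends in an A-rich tract that forms a triple helix instead of in a conventional poly(A) tail. MIAT is a nuclear RNA of neurons that binds the splicing factor SF1. NORAD is cytoplasmic and binds Pumilio proteins such as PUM2, which repress mRNAs. OIP5-AS1, also called Cyrano, carries an extensively paired site for miR-7 that leads to the destruction of this microRNA. KCNQ1OT1 and MEG3 are imprinted RNAs, expressed from the paternal and the maternal chromosome respectively.

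The sequences below show the element by which each of these RNAs is known. All were read from GENCODE transcripts of GRCh38, except the microRNA, which is from RefSeq, and all are written 5′ to 3′ on the strand of the transcript. The first pair shows the ends that the long NEAT1 transcript and MALAT1 share, with the run of letters common to both in capitals. The NEAT1 sequence is the last stretch of the 22743-base transcript at chr11:65445511-65445540, and the MALAT1 sequence, the last of 2 matches, lies at chr11:65506087-65506116, both on the plus strand.
NEAT1 long transcript: ctgtgaaagagtgagcaggAAAAAGCAAAA
MALAT1: ttttctagcttaaaaaaaaAAAAAGCAAAA
The run was found at least once in 20% of 70 transcripts within 20% of the length of the long NEAT1 transcript. Of 1196 transcripts within 20% of the length of MALAT1, 5.35% held it.

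The short NEAT1 transcript has another kind of 3′ end, shown because a poly(A)-selected library captures transcripts by their tail. It carries the polyadenylation signal AATAAA (capitals) at chr11:65426484-65426513, plus strand.
NEAT1 short transcript: tcttcccctttacagcacaAATAAAgtttg

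NORAD is shown for its Pumilio recognition elements. The motif TGTANATA was searched on the transcript strand and occurred 15 times in its 5401 bases, and 3 pairs of neighbouring matches began 9 bases apart. These pairs are printed with the motif in capitals. They lie at chr20:36049496-36049525, chr20:36048299-36048328 and chr20:36047663-36047692, all on the minus strand.
NORAD pair 1: tatctgTGTATATAgTGTACATAaaggaca
NORAD pair 2: ctatacTGTATATAtTGTATATAtaacgga
NORAD pair 3: gtgctgTGTATATAgTGTATATAagcggac
Among 4766 transcripts within 20% of its length, NORAD included, 42.4% held at least 1 match and 0.0839% held as many as NORAD.

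MIAT is shown for its repeat of TACTAAC, the branch point sequence bound by SF1, in capitals. The motif occurred 7 times in the 10143-base transcript, and the stretch printed lies at chr22:26672178-26672207 on the plus strand.
MIAT: gactTACTAACccagccccTACTAACcctg
Of 1301 transcripts within 20% of its length, 21.2% held the motif, and 1, which is MIAT itself or another of its transcripts, held as many matches.

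OIP5-AS1 is shown with miR-7. The site lies at chr15:41300574-41300599 on the plus strand, with the bases that pair with the microRNA in capitals, and the seed of hsa-miR-7-5p (bases 2 to 8) is in capitals.
OIP5-AS1 site: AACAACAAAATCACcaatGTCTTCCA
hsa-miR-7-5p: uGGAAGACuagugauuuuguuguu
The first 8 bases of the microRNA and its bases 11 to 24 pair with the site, which leaves 4 unpaired bases in OIP5-AS1 and 2 in the microRNA. The microRNA itself was not analysed here.

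The libraries held 101540520 to 132420931 counts. SFPQ, the gene targeted, had 372, 356 and 401 CPM in siControl and 209, 193 and 165 CPM in siPSF, a fall of every siPSF library below every siControl library (log2 fold change -0.99, SE 0.10, edgeR adjusted p = 9.51e-05). siPSF replicate 3 had the lowest SFPQ level and stood apart from the other siPSF libraries. Over 10497 genes its root mean square log2 difference from them was 0.235 and 0.260, against 0.145 between siPSF replicates 1 and 2. The siControl libraries differed by 0.154 to 0.231. Values of the lncRNA genes without single libraries, siPSF replicate 3 among them, are given below where they change a call or move by over 1.5 times. All 13 markers of noradrenergic neuroblastoma cells had a row, with TH, tyrosine hydroxylase, under 1 CPM in every library. GATA3 was called higher (log2 fold change 0.30, adjusted p = 0.0322). DBH (-0.68, adjusted p = 0.00241) and TH (-1.20, adjusted p = 0.0245) were called lower. The other 10 were not called, where 14.9% of all genes were called. Of 7 markers of other cell types, 2 had a row and the other 5 were not analysed here. EPCAM, an epithelial marker, had 2.06, 2.38 and 1.73 CPM in siControl and 4.04, 2.74 and 4.40 CPM in siPSF, and was called higher (log2 fold change 0.86, adjusted p = 0.0139). COL1A1, a fibroblast collagen, had 2.76, 1.98 and 1.89 CPM against 2.44, 3.60 and 3.67 CPM (0.55, adjusted p = 0.0935). The part of other cells in the results below was not tested.

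None of the 6 lncRNA genes passed the threshold of an adjusted p under 0.05 (edgeR quasi-likelihood test, Benjamini-Hochberg over 19694 genes). Of all genes tested, 14.9% were called, 6.65% higher (1310 genes) and 8.27% lower (1628 genes) in siPSF. Of the 3153 lncRNA genes tested 15.5% were called, 5.74% higher and 9.77% lower. With library sizes alone in place of TMM normalization the split over all genes was 831 higher and 2274 lower. At an unadjusted p under 0.05, 1 of the 6 passed, NEAT1, where 29.8% of all genes did, and DESeq2's Wald test also called 0 of the 6 and had 1 at an unadjusted p under 0.05. The groups overlapped for each of the 6, while those of 34.4% of all genes and 35.1% of lncRNA genes did not overlap. The median log2 fold change of the 6 was 0.16, beside 0.01 for all genes tested, with 5 above 0 and 1 below. In these bulk samples, more cells of a kind and more RNA per cell cannot be told apart.

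**Figure D1:**
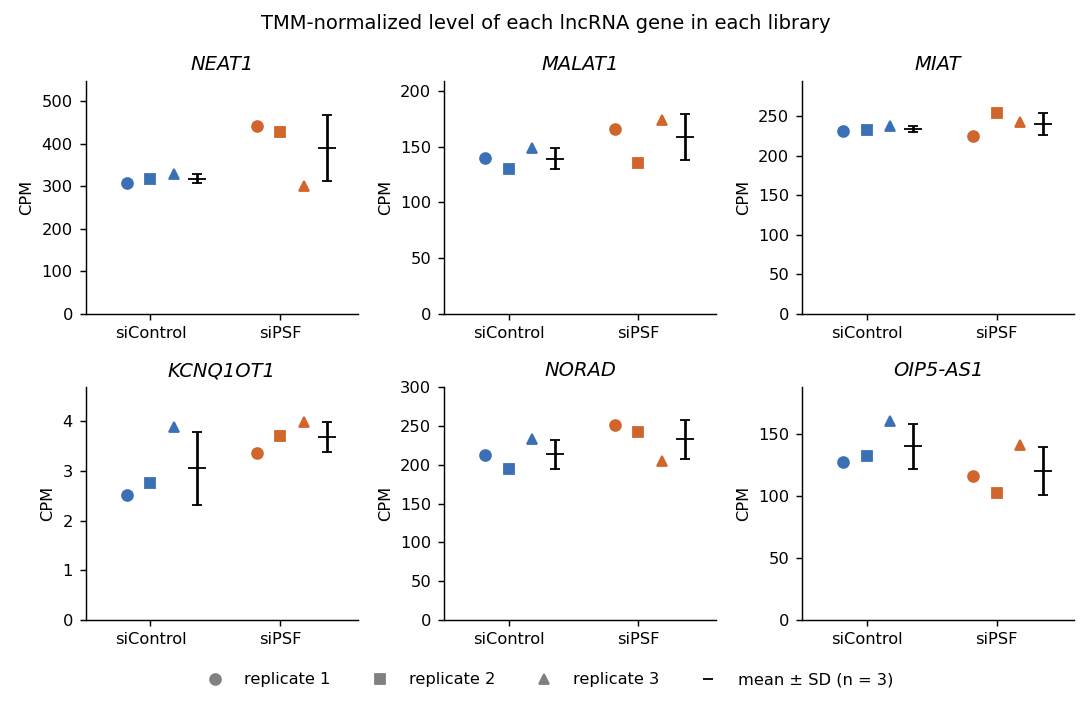
Level of each of the 6 lncRNA genes in each library, in TMM-normalized CPM on axes that start at 0. Circles, squares and triangles are replicates 1, 2 and 3, and the bars beside them are the mean ± SD (n = 3). siPSF replicate 3 is the lowest NEAT1 library (300.2 CPM), whereas the other siPSF libraries are the highest (442 and 427 CPM).

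NEAT1, at chr11:65422798-65445540, had 308, 316 and 329 CPM in siControl and 442, 427 and 300.2 CPM in siPSF. Thus siPSF replicates 1 and 2 lay above every siControl library and siPSF replicate 3 lay below every one. The siControl libraries averaged 318 ± 11 CPM, and the siPSF libraries 390 ± 77.8 CPM (SD, n = 3). NEAT1 thus had a log2 fold change of 0.29 (SE 0.13, 95% interval 0.02 to 0.57), which is a fold of 1.23 with an interval of 1.01 to 1.48 (edgeR unadjusted p = 0.0378, adjusted p = 0.141). Whether NEAT1 passed rested on 1 library. Without siPSF replicate 3 the log2 fold change was 0.45 and the adjusted p 0.00271, and NEAT1 was called. Without each of the other libraries in turn the gene was not called, with 0.19 as the lowest estimate.

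MALAT1, at chr11:65497738-65506516, had 139, 129 and 149 CPM in siControl and 166, 135 and 174 CPM in siPSF. Here siPSF replicate 3 was the highest library of all, unlike for NEAT1, and siPSF replicate 2 lay within the siControl range. MALAT1 had a log2 fold change of 0.19 (SE 0.10, 95% interval -0.04 to 0.41, adjusted p = 0.246). It was 0.29 without siPSF replicate 2 (adjusted p = 0.081) and 0.12 without siPSF replicate 3 (adjusted p = 0.497), and was not called in either case. The 2 genes are 52197 bases apart on the same strand, and the ratio of their counts removes the scale of the library. NEAT1 counts were 2.21, 2.44 and 2.22 times those of MALAT1 in siControl and 2.66, 3.15 and 1.72 times in siPSF. The ratio was thus highest and lowest in siPSF libraries. The mean log2 ratio was 1.19 ± 0.08 and 1.28 ± 0.45 (SD, n = 3, two-sided exact permutation test p = 0.7, where 3 against 3 libraries cannot go below 0.1). Single libraries set this difference of 0.09, which was 0.34 without siPSF replicate 3, 0.14 without siControl replicate 2, 0.03 without siPSF replicate 1 and -0.09 without siPSF replicate 2.

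MIAT, at chr22:26646429-26676478, was the steadiest of the 6. It had 231, 232 and 238 CPM in siControl and 225, 253 and 243 CPM in siPSF, so that the siControl range lay within the siPSF range. The log2 fold change was 0.04 (SE 0.08, 95% interval -0.13 to 0.22, adjusted p = 0.768), and its sign turned to -0.04 with library sizes alone and in the fits to FPKM. Without single libraries it was 0.00279 (without siPSF replicate 2) to 0.0862 (without siPSF replicate 1). As a fold, the 95% interval of MIAT in the main fit ran from 0.912 to 1.16, which holds for TMM normalization and 3 libraries per group.

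NORAD, at chr20:36045618-36050960, had 212, 195 and 233 CPM in siControl and 252, 242 and 205 CPM in siPSF. As for NEAT1, siPSF replicates 1 and 2 lay above the siControl libraries and siPSF replicate 3 did not. The log2 fold change was 0.13 (SE 0.10, 95% interval -0.09 to 0.34, adjusted p = 0.442), and 0.21 without siPSF replicate 3 (adjusted p = 0.154). It was 0.19 without siControl replicate 3, 0.05 without siControl replicate 2 and 0.06 without siPSF replicate 1, and was not called in these fits (adjusted p 0.154 to 0.825).

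OIP5-AS1, at chr15:41282697-41313338, was the only one of the 6 with a negative estimate. It had 127, 132 and 160 CPM in siControl and 116, 103 and 141 CPM in siPSF. Replicate 3 was the highest library of each group, and siPSF replicate 3 exceeded 2 of the siControl libraries. The log2 fold change was -0.22 (SE 0.12, 95% interval -0.49 to 0.04, adjusted p = 0.249). Without siPSF replicate 3 it was -0.35 with an adjusted p of 0.0356, and the gene was called. At the other end it was -0.12 without siControl replicate 3 and -0.12 without siPSF replicate 2. Together with NEAT1 this makes 2 of 6 called without that library, where 1405 of 19863 genes tested were called higher and 1735 lower.

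KCNQ1OT1, at chr11:2608328-2699994, was counted 305, 369 and 490 times in siControl and 400, 391 and 393 times in siPSF. This gave 2.51, 2.77 and 3.89 CPM in siControl and 3.37, 3.70 and 3.99 CPM in siPSF. Its siControl replicate 3 lay among the siPSF libraries. Its log2 fold change was 0.27 (SE 0.18, 95% interval -0.12 to 0.66, adjusted p = 0.347), with the widest interval of the 6. It was 0.48 without siControl replicate 3 (adjusted p = 0.0983) and 0.15 without siControl replicate 1 (adjusted p = 0.673).

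**Figure D2:**
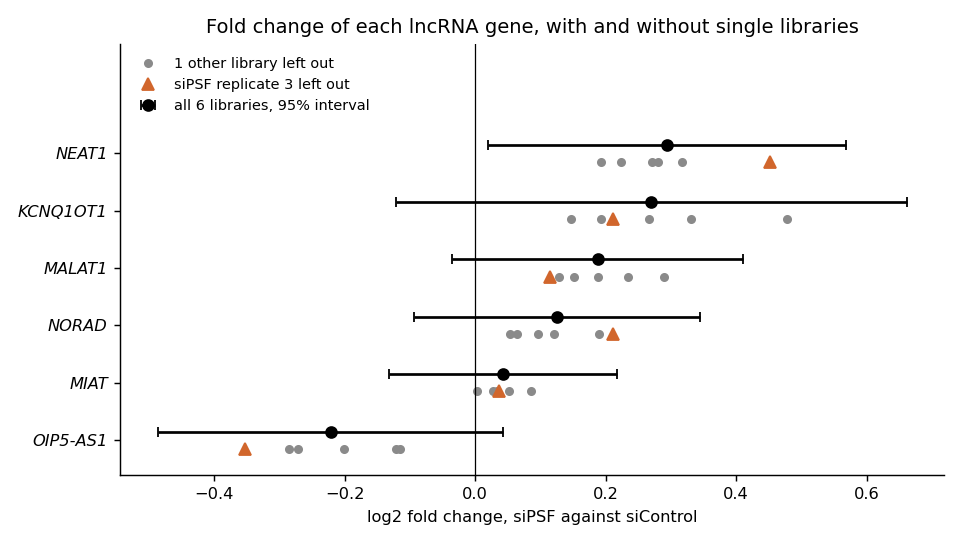
Log2 fold change of each lncRNA gene, siPSF against siControl. Black circles and bars are the edgeR estimate and its 95% interval over all 6 libraries, grey circles the estimates without 1 other library, and orange triangles those without siPSF replicate 3. NEAT1 moves from 0.29 to 0.45 and OIP5-AS1 from -0.22 to -0.35 without that library, whereas MALAT1 moves towards 0.

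Together the 6 genes took 0.108% ± 0.00842 of all counts in siControl and 0.111% ± 0.00759 in siPSF (SD, n = 3, two-sided exact permutation test p = 0.6). The difference of 0.0038 percentage points ranged from 0.000188 (without siPSF replicate 1) to 0.00859 (without siControl replicate 3) with 1 library left out, with 0.00776 without siPSF replicate 3, and was -0.0005 as a share of summed FPKM. NEAT1 held the largest part in every library, from 0.0291% in siPSF replicate 3 to 0.0435% in siPSF replicate 1.

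Levels of different genes were compared per exon length, in the deposited FPKM (fragments per exon length and library size), as a description. NEAT1 was highest, at 75.9 ± 4.95 FPKM in siControl and 88.8 ± 18.1 in siPSF (SD, n = 3). NORAD followed at 37.3 ± 4.21 and 38.5 ± 4.40, and MIAT at 21.5 ± 0.85 and 21.0 ± 1.05. OIP5-AS1 had 15.1 ± 2.28 and 12.1 ± 1.90, and MALAT1 14.9 ± 1.58 and 15.96 ± 2.12. The ranges of neighbours in this order were separate in both groups, except for OIP5-AS1 and MALAT1, whose ranges overlapped in both. KCNQ1OT1 came last by a wide margin, at 0.0251 to 0.0406 FPKM. By mean FPKM NEAT1 ranked 724 of 21301 genes and 12 among lncRNA genes, MALAT1 4333 and 48, and KCNQ1OT1 20105 and 3181.

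**Figure D3:**
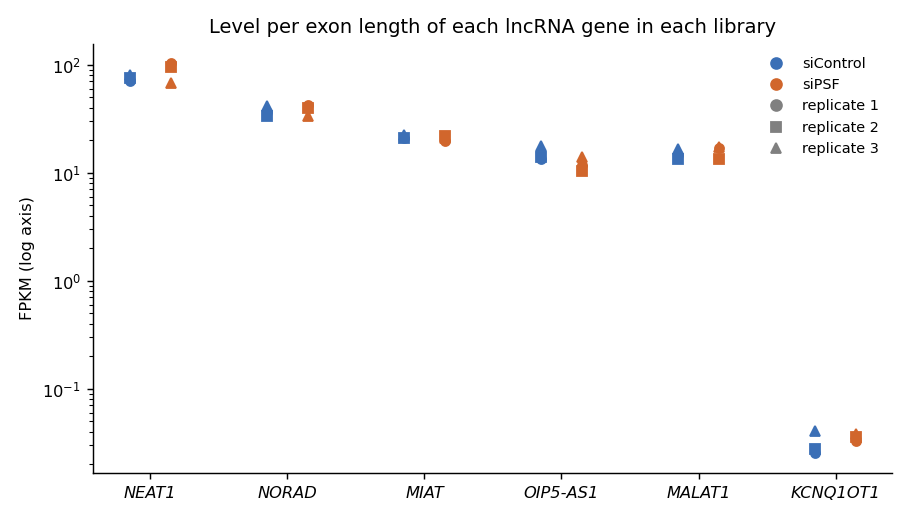
Level per exon length of each lncRNA gene in each library, in FPKM on a log axis. Blue points are siControl, orange points siPSF, and circles, squares and triangles are replicates 1, 2 and 3. OIP5-AS1 and MALAT1 overlap, and KCNQ1OT1 lies below 0.05 FPKM in all 6 libraries.

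The length behind these FPKM values bears on the order. With NORAD as the scale (5343 bases), the ratio of counts to FPKM gave a length of 3841 to 3970 bases for NEAT1. This was above the 2994 bases of the short transcript printed above and the 3524 bases of the longest other short one. It was far below the 22743 bases of the long transcript. Counts of the 2 NEAT1 forms were not separated, and poly(A) selection favours the short one. The lengths were 8554 to 8779 bases for MALAT1, 10116 to 10124 for MIAT, 8595 to 8748 for OIP5-AS1 and 91702 to 91898 for KCNQ1OT1. MALAT1 and the long NEAT1 transcript lack a poly(A) tail, so their levels in these libraries cannot be read as levels in the cells.

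Of the 22 lncRNA genes whose mean reached 100 CPM, 31.8% were called, 6 higher (27.3%) and 1 lower (4.55%) in siPSF. The 6 higher genes were the snoRNA host genes GAS5, SNHG5, SNHG8, SNHG16, SNHG29 and SNHG32, named after their values were seen except for GAS5. GAS5 had 657, 624 and 520.1 CPM in siControl and 904, 921 and 829.9 CPM in siPSF (log2 fold change 0.56, SE 0.10, adjusted p = 0.00323). SNHG1 and ZFAS1, other snoRNA host genes named after their values were seen, were not called (0.07, adjusted p = 0.660, and 0.25, adjusted p = 0.105). The lower one was LINC01000, chosen after its values were seen, at 125, 125 and 135 CPM against 89.9, 99.0 and 86.9 CPM (log2 fold change -0.48, adjusted p = 0.0028). The 5 lncRNA genes described here with at least 100 CPM were not among the 7.

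**Figure D4:**
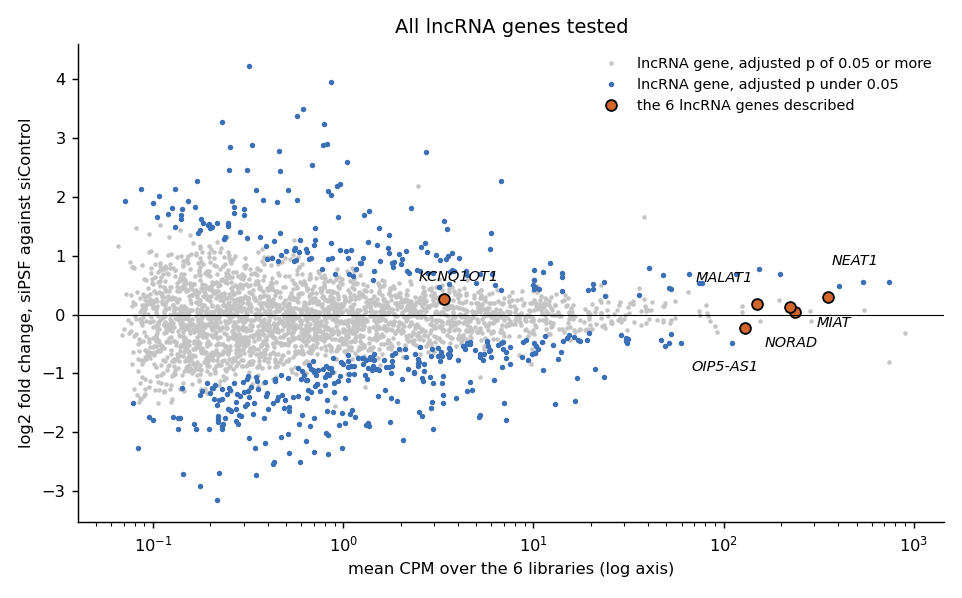
Log2 fold change against mean CPM (log axis) of the 3153 lncRNA genes tested. Blue points have an adjusted p under 0.05, grey points do not, and orange circles are the 6 genes described. These lie between -0.22 and 0.29, and 5 of them are among the 22 lncRNA genes with at least 100 CPM.

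Of 24 genes tested near the 7 loci, 1 was called higher and 6 lower, with a median log2 fold change of -0.02. Over all genes tested, 6.65% were called higher and 8.27% lower. At the locus of MEG3 all 6 neighbours fell, 5 of them with an adjusted p under 0.05. DLK1-DIO3 is an imprinted domain with paternally expressed protein-coding genes and maternally expressed noncoding RNAs. The 6 genes measured there span 836561 bases of chromosome 14, and 5 were called lower in siPSF and 0 higher, where 8.27% of all genes were called lower. The groups of all 6 did not overlap, against 17.8% of all genes with siPSF below siControl. DLK1, a Notch ligand homologue, had 78.3, 115 and 97.9 CPM in siControl and 35.2, 36.9 and 43.3 CPM in siPSF (log2 fold change -1.34, SE 0.13, adjusted p = 8.54e-05). RTL1, a retrotransposon-derived gene, fell from 338, 437 and 383 CPM to 176, 207 and 143 CPM (log2 fold change -1.14, SE 0.13, adjusted p = 0.000257). Both fell in every siPSF library, as did DIO3, a thyroid hormone deiodinase, and its antisense neighbour DIO3OS, with log2 fold changes of -1.48 and -1.42. RTL1 (chr14:100879753-100903722) overlaps MEG8 (chr14:100889649-100999113). It is not stated whether the counting used the strand, so reads of these 2 genes may be split between them. The noncoding genes MEG8 and MEG9 had under 0.4 CPM in every library. MEG9 was called at -1.20 with an adjusted p of 0.0475 and lost that call without any 1 of the libraries other than siPSF replicate 3 (0.0504 to 0.193). It also lost the call with a replicate block (0.0570) and by DESeq2's Wald test (0.0790). MEG8 was at -0.85 with an adjusted p of 0.162. Whether MEG3 itself moved was not measured.

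KCNQ1OT1 lies wholly within KCNQ1, the potassium channel gene, on the opposite strand, over 91667 bases. KCNQ1 had 16.4, 16.1 and 12.6 CPM in siControl and 6.73, 7.36 and 5.38 CPM in siPSF, lower in every siPSF library (log2 fold change -1.21, SE 0.15, adjusted p = 0.000329). KCNQ1OT1 counts were 0.153, 0.171 and 0.309 times those of KCNQ1 in siControl and 0.501, 0.503 and 0.742 times in siPSF. The ratios of the groups did not overlap, with a mean log2 ratio of -2.32 ± 0.54 and -0.81 ± 0.33 (SD, n = 3, two-sided exact permutation test p = 0.1, the smallest these groups allow). It is not stated whether the counting used the strand, so reads of the pair may be split between them. The same holds for the overlapping pairs described below. The other neighbours were not called, among them CDKN1C, a cell cycle inhibitor, at a log2 fold change of 0.01 (SE 0.12), whose sign turned in several of the alternative fits.

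Elsewhere 1 neighbour was called. EPB41L1, a cytoskeletal protein gene near NORAD, had 40.5, 41.1 and 41.9 CPM in siControl and 48.6, 53.1 and 57.0 CPM in siPSF (log2 fold change 0.36, SE 0.09, adjusted p = 0.0183). It lost the call without siControl replicate 1 (adjusted p = 0.0531) and without siControl replicate 2 (0.0796), as well as with library sizes alone and in the fits to FPKM. At the NEAT1-MALAT1 locus 0 of 5 neighbours were called, at the OIP5-AS1 locus 0 of 3 and at the MIAT locus 0 of 2. TALAM1, which overlaps MALAT1 by 7205 bases on the opposite strand, had 14 to 39 counts per library. OIP5, which overlaps OIP5-AS1 by 4066 bases, had 7.48 to 8.95 CPM. OIP5-AS1 counts were 14.97, 16.4 and 17.9 times those of OIP5 in siControl and 13.3, 11.5 and 18.8 times in siPSF (two-sided exact permutation test on log2 ratios p = 0.5). The difference in log2 ratio was -0.20 with all libraries, -0.40 without siPSF replicate 3 and -0.05 without siPSF replicate 2. MIATNB, which overlaps MIAT by 3636 bases, was at -0.40 (SE 0.24, adjusted p = 0.288), with -0.64 without siPSF replicate 1 and -0.18 without siPSF replicate 3.

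**Figure D5:**
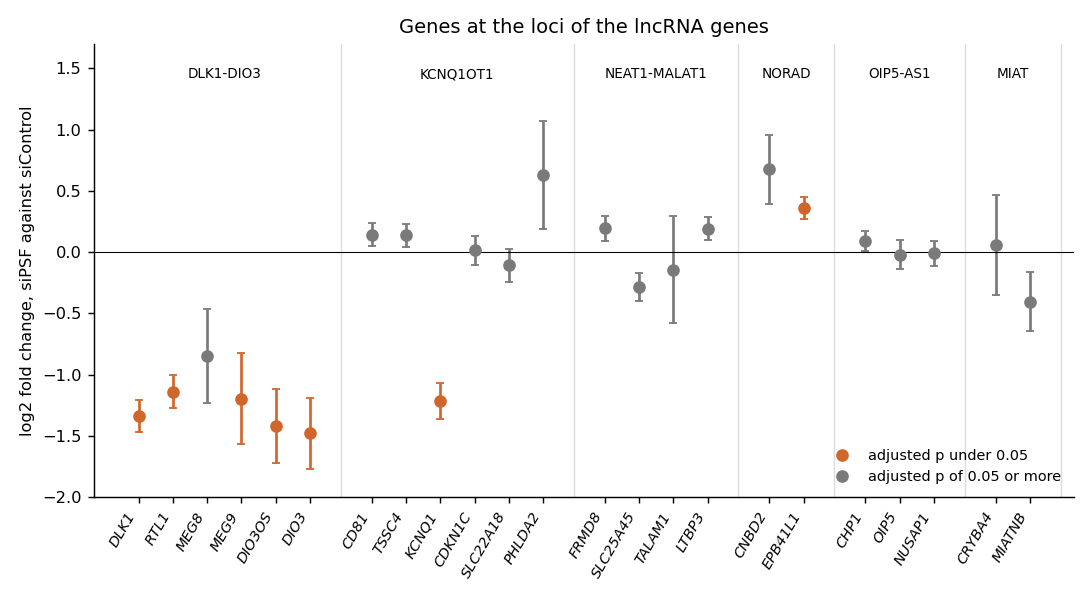
Log2 fold change of the genes around each lncRNA gene, siPSF against siControl, with bars of ± 1 SE (edgeR, 6 libraries) and loci separated by vertical lines. Orange points have an adjusted p under 0.05. 1 gene of the NEAT1-MALAT1 locus is not shown. The 6 genes of the DLK1-DIO3 domain lie between -0.85 and -1.48 and KCNQ1 at -1.21, and most of the others lie near 0.

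The proteins with which these RNAs work were read from lists. Of 24 paraspeckle proteins, 3 were called higher and 1, SFPQ, lower, with a median log2 fold change of 0.07 beside 0.01 for all genes. Over all genes tested, 14.9% were called (6.65% higher and 8.27% lower), and SFPQ is the gene targeted. PSPC1, which belongs to the same DBHS family as PSF, had 50.2, 39.4 and 41.4 CPM in siControl and 93.5, 92.6 and 98.7 CPM in siPSF (log2 fold change 1.12, SE 0.10). It was higher in every siPSF library, siPSF replicate 3 included, where NEAT1 was not. HNRNPA1, an hnRNP protein that regulates splicing, rose by 0.64 on the log2 scale and RBM12 by 0.31. However, RBM12 lost its call without siControl replicate 1 or 2 and without siPSF replicate 1 or 2 (adjusted p 0.0769 to 0.0979). It also lost the call with library sizes alone (0.0745) and in the fits to FPKM. NONO, the third DBHS protein and named after its values were seen, had 719, 728 and 677 CPM in siControl and 805, 810.4 and 841 CPM in siPSF (log2 fold change 0.21, adjusted p = 0.101).

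Of 20 other protein partners of these RNAs, 1 was called higher and 1 lower, where 14.9% of all genes were called. Their median was -0.04. SRSF3, a splicing factor, was at 0.40 (adjusted p = 0.0096), and QKI, an RNA-binding protein of the STAR family, at -0.42 (adjusted p = 0.0359). SRSF3 lost its call without siControl replicate 2 (adjusted p = 0.0631) and without siPSF replicate 1 (0.0541). QKI lost its call without siControl replicate 2 or 3, without siPSF replicate 1 or 2 (0.0654 to 0.106) and without the filter on low counts (0.0543). Thus 0 partners were called without siControl replicate 2 or siPSF replicate 1, 1 without siPSF replicate 2 and 4 without siPSF replicate 3. In the same order, these fits called 1500 of 19907, 1975 of 19919, 2340 of 19879 and 3140 of 19863 genes tested. The next partners were named after their values were seen. PUM2, which binds the NORAD elements printed above, was at 0.21 (adjusted p = 0.144), and was called without siControl replicate 3 (0.29, adjusted p = 0.043). SF1, which binds the MIAT repeat, had 478, 474 and 437 CPM in siControl and 396, 424 and 389 CPM in siPSF (log2 fold change -0.20, adjusted p = 0.126), and was called with library sizes alone and in the fits to FPKM. ELAVL1, a protein that binds OIP5-AS1, was at -0.27 (adjusted p = 0.0717), and at -0.37 without siPSF replicate 3 (adjusted p = 0.00965), and was also called by DESeq2's Wald test, with library sizes alone and in the fits to FPKM. HNRNPK, the host gene of a miR-7 precursor, was at 0.03 (adjusted p = 0.827), with its sign turned to -0.05 under library sizes alone and in the fits to FPKM.

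Of 35 other named lncRNAs, 30 were tested, with a median log2 fold change of -0.01. Where 6.65% of all genes were called higher and 8.27% lower, 1 of the 30 was called lower and 7 were called higher. Besides GAS5 these were DANCR (0.46), EPB41L4A-AS1 (0.53), LINC-PINT (0.93) and NBAT1 (0.74), and RPPH1 (2.999) and HOTAIR (2.26), both under 0.5 CPM in every library. CASC2 was the one called lower (-0.67), at 2.68, 2.61 and 3.53 CPM in siControl and 1.68, 1.82 and 2.04 CPM in siPSF. NBAT1 lost its call without siControl replicate 2 or 3 or siPSF replicate 2 (adjusted p 0.0685 to 0.109), and CASC2 without siControl replicate 3 or siPSF replicate 1 or 2 (0.0576 to 0.0963). CASC2 also lost its call in the fits to FPKM. H19, an imprinted RNA named after its values were seen, varied within both groups: 519, 1252 and 1068 CPM in siControl and 275, 291 and 1050 CPM in siPSF. As for NEAT1, siPSF replicate 3 stood apart from the other siPSF libraries (log2 fold change -0.81, adjusted p = 0.242, and -1.74 with an adjusted p of 0.00017 without it).

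For each of the 6 genes, the 3 genes most like it over the 6 libraries were found by the root mean square difference of log2 CPM, centred on each gene's own mean, over the 14678 genes whose mean reached 1 CPM. DRGX (0.0509) and LOC101926969 (0.0521) were among the 3 closest to NEAT1. For MALAT1 the closest was CEBPZ (0.0211), followed by BORCS7 and TRAPPC13, and for MIAT VANGL2 (0.0179), followed by LRFN2 and ZNF586. For NORAD it was LARS1 (0.0263), followed by SLC6A15 and CCP110, and for OIP5-AS1 CKAP2L (0.0267), followed by CCNT2 and DAAM1. KCNQ1OT1 had the least close match, LOC107985558 (0.0681), with AMN1 (0.074) also among its 3 closest.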

How the data were processed

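RNA-seq was performed on SH-SY5Y cells treated with siControl or siPSF, 3 libraries each, grouped by the sample titles. The deposited table holds read counts and FPKM per gene. The sources differ on how the authors made them. The study's methods give poly(A) selection with a TruSeq RNA kit, rRNA removal with Bowtie 2, TopHat on hg38 and RefSeq tag counts, and call the normalized unit RPKM. The labels give a stranded TruSeq mRNA kit, GRCh38, Trimmomatic, HISAT2 2.1.0 and StringTie 2.1.3b. Strand use in the counting is not given in the sources used here. The deposited FPKM values are normalized by the authors to exon length and mapped reads.

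The counts were filtered with filterByExpr, normalized by TMM and tested with edgeR 4.0.16 (R 4.3.3) by the quasi-likelihood test without a block, with Benjamini-Hochberg adjustment over 19694 genes and a threshold of 0.05. The common biological coefficient of variation was 12.6%. Counts of replicate libraries differed beyond sampling noise (chi-square over its degrees of freedom 21.7 or more), so no library was counted as a duplicate. Alternatives were each library left out, a replicate block, DESeq2 1.42.0 size factors or Wald test, library sizes alone, no filter, and limma 3.58.1 on log2(FPKM + 0.5), with 0.1 or 1 as other pseudocounts, for genes with a mean FPKM of at least 0.5. Single values per library were compared by exact permutation. The fit was tested on 5 simulated sets, each with 200 of 19694 genes changed. It called 83.6% of the changed genes, and 7.52% of its calls were false, above what a threshold of 0.05 allows. The number of sets was raised after a first output was seen. Positions are from RefSeq on GRCh38.

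The members and gene lists were chosen with earlier results of these data known. Genes named are the members, SFPQ, at most 8 called genes per list, genes at a member's locus and the 3 most like each member, although a few of these genes are left out of the text. Any other is said to have been chosen after its values were seen.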

Additional observations from a re-analysis of the deposited data

How the results depend on the processing

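With the cause not tested in any case, the 6 lncRNA genes kept their direction in every alternative fit except MIAT, at -0.0371 with library sizes alone and -0.0364, -0.0371 and -0.0356 in the limma fits to FPKM with pseudocounts of 0.5, 0.1 and 1. KCNQ1OT1 could not be fitted to FPKM, being under the filter. Leaving out 1 library at a time gave 0.19 to 0.45 for NEAT1 (adjusted p 0.00271 to 0.417), -0.35 to -0.12 for OIP5-AS1 (0.0356 to 0.593), 0.12 to 0.29 for MALAT1, 0.05 to 0.21 for NORAD, 0.15 to 0.48 for KCNQ1OT1, 0.00279 to 0.0862 for MIAT, and 0 to 2 of the 6 genes called, the 2 without siPSF replicate 3. It gave 1500 of 19907 genes called (without siControl replicate 2) to 3140 of 19863 (without siPSF replicate 3), 1754 of 19889 without siControl replicate 3, and 0 to 4 protein partners. Among neighbours, which were not called, signs turned: the ranges were -0.0671 to 0.104 for CDKN1C, -0.0581 to 0.161 for CRYBA4, -0.110 to 0.0504 for NUSAP1, -0.0675 to 0.0554 for OIP5 and -0.409 to 0.411 for TALAM1. With library sizes alone, the split of calls was 831 higher and 2274 lower (26.8% higher, against 44.6%), 6 protein partners were called, and CDKN1C was at -0.0619, CRYBA4 at -0.0160 and HNRNPK at -0.0467. The fits to FPKM called 6 protein partners and 5 other named lncRNAs, with CDKN1C at -0.0180, -0.0187 and -0.0172 and HNRNPK at -0.0459, -0.0459 and -0.0458, in the order of pseudocounts above. With a pseudocount of 0.5, the fit to FPKM called 736 of 14830 genes higher and 1782 lower. Without the filter 1 protein partner was called, where 1085 of 21301 genes were called higher and 1471 lower. The replicate numbers did not pair the libraries (correlations of same-numbered deviations -0.022, 0.056 and 0.056, and 2 of 6 libraries correlated best with their own number). A fit with the replicate number as a block called 1389 genes higher and 1640 lower and 0 of the 6 (smallest adjusted p 0.0764). Calls at low counts, such as MEG9 with 11 to 52 counts per library, are limited by depth.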

Other observations

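CDKN1A, which encodes a cell cycle inhibitor, and MDM2, which encodes a ubiquitin ligase, were chosen after their values were seen. CDKN1A had 612, 671 and 570.4 CPM in siControl and 894, 1027 and 491 CPM in siPSF, and MDM2 had 166, 153 and 170.2 CPM in siControl and 226, 206 and 149 CPM in siPSF. Like NEAT1, both were above every siControl library in siPSF replicates 1 and 2 and below every one in siPSF replicate 3. The log2 fold change was 0.38 for CDKN1A (adjusted p = 0.225) and 0.25 for MDM2 (adjusted p = 0.221, edgeR quasi-likelihood test). Without siPSF replicate 3 both were called, at 0.64 (adjusted p = 0.000621) and 0.40 (adjusted p = 0.00641). These genes share the same libraries, and what sets siPSF replicate 3 apart was not tested. The share of all genes with this pattern was not counted, so the likeness to NEAT1 cannot be called particular to these genes.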
